A study of Mus musculus with 12 samples.

Results

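The genes described here encode the Fc gamma receptors of the mouse, the cell-surface receptors for the constant (Fc) part of IgG antibodies, and the signalling chain that the activating ones share. They were taken by symbol from the deposited gene table: Fcgr1, Fcgr3 and Fcgr4 (the activating receptors), Fcer1g (the chain) and Fcgr2b (the inhibitory receptor). All 5 were present among 21853 protein-coding genes, and all 5 passed the filter on low values used for testing (at least 1 FPKM in at least 3 libraries, met by 10994 genes). FPKM, fragments scaled to transcript length and to the mapped fragments of the library, is a length-scaled expression level.

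RNA was sequenced from whole bone marrow of B6 mice in 4 groups of 3 libraries, with marrow taken 14 days after irradiation. The control mice were not irradiated, and no vehicle or gavage is stated for them. The TBI mice received total body irradiation with 5 Gy of gamma rays at 0.66 Gy per minute and 100 µL of olive oil, the vehicle, by mouth. The TBI+DEIX mice received the same dose of radiation and were given DEIX by mouth at 25 mg/kg once daily for 14 days, and the DEIX mice received DEIX without radiation. DEIX stands beside deinoxanthin in the title of the series, a carotenoid pigment of Deinococcus bacteria. Age and sex of the mice are not given in the sources used here, nor whether each library came from a separate animal, so p-values measure the spread between these libraries, which may be technical. The marrow was not sorted, so fewer cells of a type and less RNA per cell cannot be told apart in any value below.

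Fc gamma receptors recognise antibody-coated particles and immune complexes. The activating receptors pair with the Fcer1g chain, whose tail carries an activation motif (ITAM) that Src-family kinases such as Lyn and Fgr phosphorylate and that then recruits the kinase Syk. Fcgr2b needs no partner chain: its own tail carries an inhibitory motif (ITIM) that recruits the inositol phosphatase encoded by Inpp5d, and it is the Fc gamma receptor of B cells as well as of many myeloid cells. In marrow the activating receptors belong mainly to monocytes, macrophages and neutrophils, and Fcgr3 also to natural killer cells. Interferon gamma is a textbook inducer of Fcgr1, and PU.1 is a factor that myeloid promoters commonly use.

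On GRCm38 with GENCODE vM21, the 3 low-affinity receptor genes and the chain gene lie within 276 kb of chromosome 1, and the high-affinity receptor gene Fcgr1 lies alone on chromosome 3 (chr3:96282909-96293969, minus strand). Fcgr2b (chr1:170958617-170976547, minus strand), Fcgr4 (chr1:171018920-171029761, plus strand) and Fcgr3 (chr1:171051174-171064935, minus strand) fill 106 kb, and Fcer1g follows at chr1:171229572-171234365 on the minus strand. Their transcripts share sequence: 166 stretches of 50 bases occur in both Fcgr3 and Fcgr2b, which is 10.2% of the stretches of Fcgr3 and 4.48% of those of Fcgr2b. No other pair of the 5 genes shares a stretch of that length. How reads were divided between Fcgr3 and Fcgr2b is not given in the sources used here, so their levels are less certain than those of Fcgr4. Fcgr2b is also overlapped on the other strand by the antisense gene Gm38204, and whether the counting used strand is not stated.

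The promoter windows of Fcgr1 and Fcgr4 are shown because these 2 receptor genes had different patterns over the groups. Each window holds the 250 bases before the start listed by RefSeq on GRCm38.p6, and capitals mark the letters of 3 searched motifs. These were TTCNNNGAA (core of the gamma-activated site), GAAANNGAA (core of the interferon-stimulated response element) and GAGGAA (core of PU.1 sites, which reads TTCCTC on the other strand), each searched on both strands. The Fcgr1 window is chr3:96293970-96294219 on the minus strand, and the Fcgr4 window is chr1:171018676-171018925 on the plus strand, with its last few bases inside the first exon of the GENCODE model.
Fcgr1: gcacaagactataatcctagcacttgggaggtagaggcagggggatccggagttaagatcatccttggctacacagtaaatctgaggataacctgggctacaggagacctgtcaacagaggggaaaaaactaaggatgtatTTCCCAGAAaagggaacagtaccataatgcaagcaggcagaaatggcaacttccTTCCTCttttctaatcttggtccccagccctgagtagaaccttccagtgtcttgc
Fcgr4: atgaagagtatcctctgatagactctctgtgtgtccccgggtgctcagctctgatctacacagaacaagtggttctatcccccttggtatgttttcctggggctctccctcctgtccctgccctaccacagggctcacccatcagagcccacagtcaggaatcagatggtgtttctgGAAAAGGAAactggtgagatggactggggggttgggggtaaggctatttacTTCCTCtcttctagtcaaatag
The Fcgr1 window held TTCCCAGAA at 109 to 101 bases before the start, and 7.0% of 32851 RefSeq promoter windows of this length hold that motif. The Fcgr4 window held GAAAAGGAA at 73 to 65 bases before its start, a motif in 7.1% of windows. TTCCTC stood at 55 to 50 bases before the start of Fcgr1, at 22 to 17 before Fcgr4 and, for the 2 starts that RefSeq lists for Fcgr3, at 6 to 1 and 15 to 10 before them, and 23.3% of windows hold it on 1 strand or the other. The windows of Fcgr2b and Fcer1g held none of the 3 motifs. By the GENCODE models, the Fcgr2b window and both Fcgr3 windows lie wholly inside the gene, and the last bases of the Fcer1g window do too. No overlap occurred among the matches of these windows, and a match describes the letters only.

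Summed FPKM per library ran from 493683 to 848843, and 10359 to 10832 genes reached 1 FPKM. The worth of 1 read, estimated from low genes and relative to control replicate 1, ranged from 0.9 to 2.14, higher values meaning shallower libraries, and the 3 TBI+DEIX libraries lay at 1.52 to 2.14. The estimates for TBI+DEIX replicate 1 (2.14) and DEIX replicate 1 (1.66) are weak, since their best fit stood only 1.05 and 1.03 times above the next. S100a8, S100a9 and Ngp, abundant neutrophil genes, were all listed at 0 in control replicate 3 and TBI+DEIX replicate 2, and together made 10.4% to 26.4% of the sum in the other 10 libraries, of which 2 in TBI listed 2 of these genes at 0 and 1 in DEIX listed 1. Setting each library to the same sum therefore also carries that difference. TBI+DEIX replicate 1 stood apart. Against the rest of its group, the median log2 deviation in it was -0.24 for the shortest tertile of transcripts (up to 1468 nt) and 0.14 for the longest (from 2810 nt). Of the members, Fcer1g (median coding transcript 678.5 nt), Fcgr4 (1256 nt) and Fcgr3 (1324 nt) fall in the shortest tertile, Fcgr2b (1520 nt) and Fcgr1 (2589 nt) in the middle one. Changes of the members in TBI+DEIX against control and TBI are therefore given with and without that library. Of the listed pathway genes, 26 were called in TBI+DEIX against control and 12 against TBI, beside 30.0% and 8.10% of all tested genes. These calls held in direction and threshold without TBI+DEIX replicate 1, where 38.5% and 25.8% of all tested genes were called. Its removal also raised the share of all tested genes called in comparisons that do not use it, from 3.99% to 12.2% in TBI against control and from 7.24% to 21.8% in DEIX against control. Other libraries mattered too: 15 of the 26 calls against control and 0 of the 12 against TBI held whichever of the 12 libraries was left out. Without TBI replicate 3 or TBI+DEIX replicate 3, 0 of the 12 held, in fits that called 0.0455% and 0.464% of all tested genes. The 4 genes whose change without TBI+DEIX replicate 1 differed by more than 1.5 times (Fcrl1, Ncr1, Gab2 and Inppl1) are given with both values. The part of depth and transcript length in the results was not tested.

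Among the receptors, Fcgr4 was about 2.07-fold higher after irradiation with DEIX than in control marrow and also than after irradiation with vehicle. Fcgr2b was 1.42-fold higher after DEIX alone than in control, a change that passed the test in 13 of 23 alternative fits. Fcgr1 was lowest after irradiation with vehicle, without passing the test. Fcgr3 and Fcer1g reached their highest levels in 2 of the 3 TBI+DEIX libraries and their lowest in the third. Tests used limma on log2(FPKM + 1), and a change is called where its p, adjusted by Benjamini-Hochberg over the 10994 tested genes, is under 0.05. A fold on this scale understates the change of low genes.

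**Figure D1:**
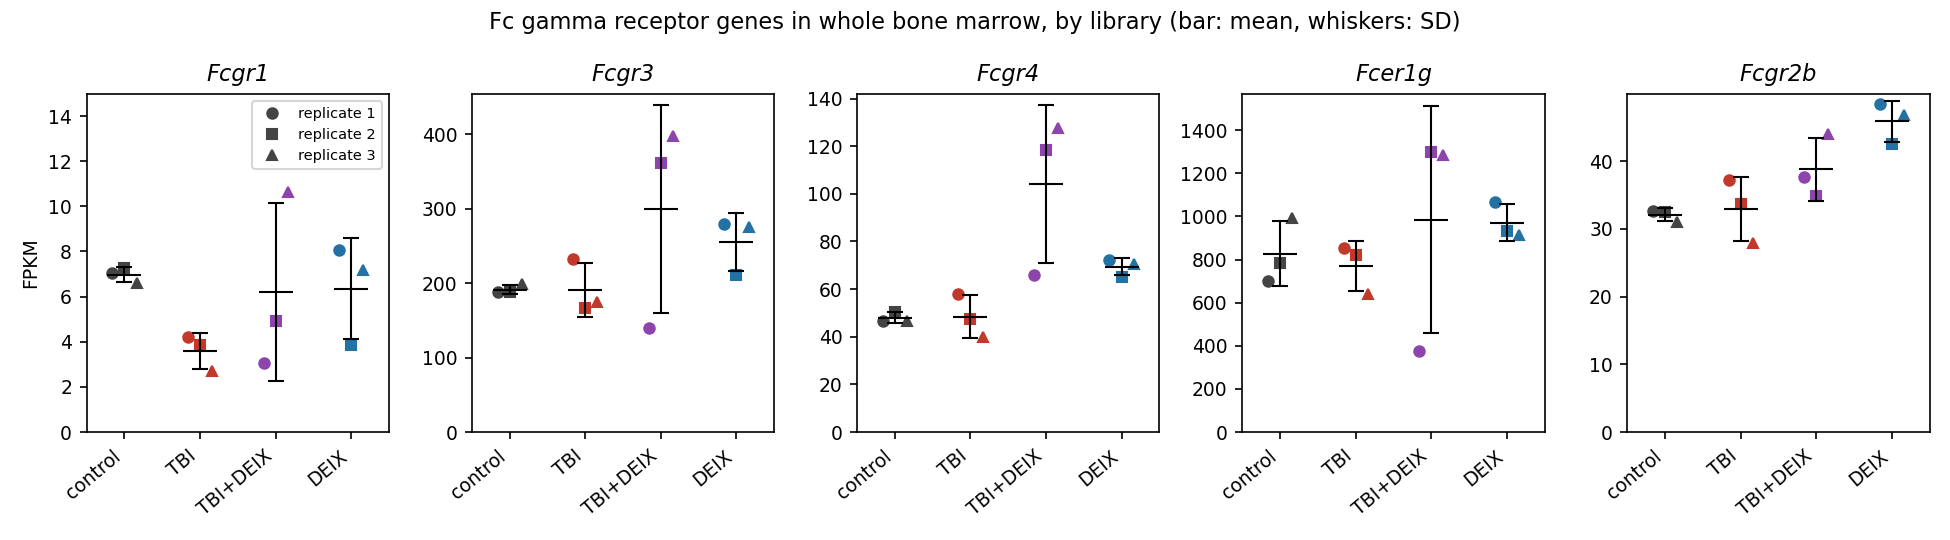
FPKM (y axis, linear, from 0) of each member in every library, by group (x axis), with the mean as a bar and the SD as whiskers (n = 3). Fcgr4 stood at 66.1 FPKM or more in each TBI+DEIX library and at 57.9 or less in each control and TBI library, and TBI+DEIX replicate 1 (circle) was the lowest of all 12 libraries for Fcgr3 and Fcer1g.

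Fcgr4, which encodes the activating receptor FcγRIV of neutrophils, monocytes and macrophages, measured 46.6, 50.6 and 46.7 FPKM in control replicates 1 to 3 and 57.9, 47.6 and 39.8 FPKM in the TBI replicates. It measured 66.1, 118 and 128 FPKM in the TBI+DEIX replicates and 72.1, 65.3 and 70.7 FPKM in the DEIX replicates. Every TBI+DEIX library was thus above every control and TBI library, and the DEIX libraries lay between them, overlapping only the lowest TBI+DEIX library. Group means were 47.9 ± 2.27 (control), 48.4 ± 9.07 (TBI), 69.4 ± 3.63 (DEIX) and 104 ± 33.2 FPKM (TBI+DEIX; SD, n = 3 each). The order of levels was therefore TBI+DEIX, DEIX and then TBI and control, whose means differed by less than their SD.

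The change of Fcgr4 in TBI+DEIX against control was 1.05 on the log2 scale (SE 0.21, 95% interval 0.57 to 1.52, limma adjusted p = 0.00474, 3 of 3 libraries higher). Fcgr4 was the only member called there, in a comparison that called 30.0% of tested genes. Against TBI the change was also 1.05 (SE 0.21, limma adjusted p = 0.0208), again the only member called, where 8.10% of tested genes were. Without TBI+DEIX replicate 1 the changes rose to 1.34 against control (limma adjusted p = 0.000147) and 1.34 against TBI (limma adjusted p = 0.00168). The call against TBI was lost without TBI replicate 2 (limma adjusted p = 0.0545), TBI replicate 3 (0.107) or TBI+DEIX replicate 3 (0.0725), and with only the 2 groups in the model (0.150).

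Fcgr4 was not called in DEIX against control: the log2 change was 0.52 (SE 0.21, limma adjusted p = 0.160), although no DEIX library overlapped a control library. In TBI its mean was near control (log2 change -0.00, 95% interval -0.47 to 0.47). TBI+DEIX against DEIX gave 0.52 (SE 0.21, limma adjusted p = 0.259). The interaction, which asks whether the DEIX effect differs between irradiated and unirradiated mice, was 0.52 (SE 0.30, limma adjusted p = 0.807), so a difference between the DEIX effects with and without radiation was not shown. Without TBI+DEIX replicate 1, Fcgr4 passed in DEIX against control (limma adjusted p = 0.0129), in TBI+DEIX against DEIX (0.82, adjusted p = 0.00781) and in the interaction (0.82, adjusted p = 0.0334). With that library left out, the same comparisons called 21.8%, 8.43% and 3.01% of the 10994 genes.

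Fcgr1 encodes FcγRI, the high-affinity receptor, which is known from monocytes and macrophages and responds to interferon. It was the least abundant member. Its level was 7.06, 7.26 and 6.61 FPKM in the control replicates, 4.22, 3.85 and 2.71 in TBI, 3.07, 4.93 and 10.6 in TBI+DEIX, and 8.06, 3.84 and 7.17 in DEIX. All 3 TBI libraries lay under all 3 control libraries, while TBI+DEIX and DEIX each had libraries on both sides of the control range. Group means were 6.98 ± 0.33 FPKM (control), 6.36 ± 2.22 (DEIX), 6.22 ± 3.95 (TBI+DEIX) and 3.59 ± 0.79 (TBI; SD, n = 3 each), and the first 3 means in this order differed by less than their spread.

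The Fcgr1 change in TBI against control was -0.81 on the log2 scale (SE 0.34, 95% interval -1.55 to -0.07), with a limma p of 0.0345 before and 0.233 after adjustment. No member was called in TBI against control, where 3.99% of tested genes were called, and Fcgr1 alone had libraries fully under the control range, as did 16.3% of tested genes. With only control and TBI in the model, Fcgr1 passed (limma adjusted p = 0.0076), in a fit that called 12.9% of tested genes. The log2 changes of Fcgr2b (0.03), Fcgr3 (-0.02), Fcgr4 (-0.00) and Fcer1g (-0.10) in TBI were small beside their SEs of 0.12 to 0.40, and their directions turned in some alternative fits. Fcgr1 in TBI+DEIX differed from TBI by 0.53 (SE 0.34, limma adjusted p = 0.344) and from control by -0.28 (adjusted p = 0.555), which became 0.87 (limma adjusted p = 0.0555) and 0.06 (adjusted p = 0.894) without TBI+DEIX replicate 1.

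Fcgr3 encodes FcγRIII, the activating receptor that myeloid cells and natural killer cells share, and it was the most abundant receptor of the 4. Control replicates measured 188, 188 and 199 FPKM, TBI replicates 233, 167 and 174, TBI+DEIX replicates 139, 362 and 398, and DEIX replicates 280.3, 211 and 275 FPKM. All 3 DEIX libraries were above the control range, whereas the TBI+DEIX group held both the lowest and the 2 highest of all 12 libraries. Group means were 191 ± 6.36 (control), 191 ± 36.1 (TBI), 255 ± 38.7 (DEIX) and 299.8 ± 140.1 FPKM (TBI+DEIX; SD, n = 3 each).

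None of the Fcgr3 comparisons passed in the main fit of all 12 libraries. The log2 change was 0.40 in DEIX against control (SE 0.32, limma adjusted p = 0.480), 0.50 in TBI+DEIX against control (SE 0.32, adjusted p = 0.264) and 0.52 against TBI (SE 0.32, adjusted p = 0.333). Without TBI+DEIX replicate 1 the change against control was 0.98 (SE 0.16, limma adjusted p = 0.00111), against TBI 1.00 (adjusted p = 0.00474) and against DEIX 0.58 (adjusted p = 0.0496). The SE of Fcgr3, pooled over the groups, was 0.32 with that library and 0.14 to 0.16 without it.

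Fcer1g, the chain without which the activating receptors are poorly expressed at the surface, was the most abundant member. It stood at 699, 786 and 993 FPKM in control, 853, 820.2 and 639 in TBI, 375, 1297 and 1284 in TBI+DEIX, and 1068, 933 and 914 in DEIX. TBI+DEIX replicates 2 and 3 were the highest and replicate 1 the lowest of the 12, and the ranges of the other groups overlapped control. Mean levels were 826 ± 151 (control), 771 ± 115 (TBI), 971 ± 84.2 (DEIX) and 985 ± 528 FPKM (TBI+DEIX; SD, n = 3 each). Control libraries overlapped those of TBI and DEIX, and TBI+DEIX spanned all 3 other groups. No change of Fcer1g was called: DEIX against control gave 0.25 (SE 0.40), TBI+DEIX against control 0.07 (95% interval -0.81 to 0.94) and TBI+DEIX against TBI 0.16 (SE 0.40). The second of these turned to -0.06 on a scale where each library has the same sum. Without TBI+DEIX replicate 1 it became 0.66 against control (SE 0.17, limma adjusted p = 0.0133) and 0.75 against TBI (adjusted p = 0.0151).

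Fcgr2b, the inhibitory receptor, measured 32.7, 32.6 and 31.1 FPKM in control, 37.2, 33.7 and 27.9 in TBI, 37.6, 34.8 and 43.9 in TBI+DEIX, and 48.4, 42.5 and 46.8 in DEIX. Each DEIX library and each TBI+DEIX library was above the control range, and DEIX overlapped TBI+DEIX. Mean levels were 45.9 ± 3.04 (DEIX), 38.8 ± 4.68 (TBI+DEIX), 32.9 ± 4.73 (TBI) and 32.1 ± 0.91 FPKM (control; SD, n = 3 each), the last 2 within their spread. Over the 12 libraries its levels were the closest together of the 5 members, by the ratio of highest to lowest.

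Fcgr2b rose by 0.50 on the log2 scale in DEIX against control (SE 0.12, 95% interval 0.24 to 0.76, limma adjusted p = 0.0324), the only member called in a comparison that called 7.24% of tested genes. Fcgr2b, Fcgr3 and Fcgr4 had libraries fully above the control range there, which held for 23.4% of tested genes. The call was lost without any single control library (limma adjusted p = 0.0925 to 0.116), without DEIX replicate 1 (0.130), DEIX replicate 3 (0.108) or TBI replicate 2 (0.0536). It was also lost with each library set to the same sum (0.35, adjusted p = 0.341), rescaled without S100a8, S100a9 and Ngp (0.46, 0.111), under quantile normalization (0.42, 0.0543) and with the replicate number as a block (0.50, 0.0513). In TBI+DEIX, Fcgr2b differed from control by 0.26 (SE 0.12, adjusted p = 0.125), from TBI by 0.23 (adjusted p = 0.240) and from DEIX by -0.24 (adjusted p = 0.355). Leaving out TBI+DEIX replicate 1 gave 0.28 (limma adjusted p = 0.113), 0.25 (0.168) and -0.22 (0.301).

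Over all 5 members, the libraries of TBI+DEIX lay fully above control for Fcgr2b and Fcgr4, as for 23.9% of tested genes, and fully above TBI for Fcgr4, as for 14.5%. Between TBI+DEIX and DEIX no member was called, where 2.57% of tested genes were, and the libraries of all 5 members overlapped, while 17.7% of tested genes did not overlap. In that comparison 1 member, Fcgr4, had an unadjusted limma p under 0.05. In the interaction 0 members were called or had an unadjusted limma p under 0.05, in a comparison that called 0.200% of tested genes. The median log2 change of the 5 members was 0.40 in DEIX against control, 0.26 in TBI+DEIX against control, 0.52 in TBI+DEIX against TBI and -0.02 in TBI against control, beside 0.02, 0.02, 0.00 and 0.05 over all tested genes. Leaving out TBI+DEIX replicate 1, the second and the third of these were 0.66 and 0.87, beside 0.01 and 0.00 over all tested genes. The 3 comparisons against control share the control libraries, and both comparisons of TBI+DEIX share its own.

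**Figure D2:**
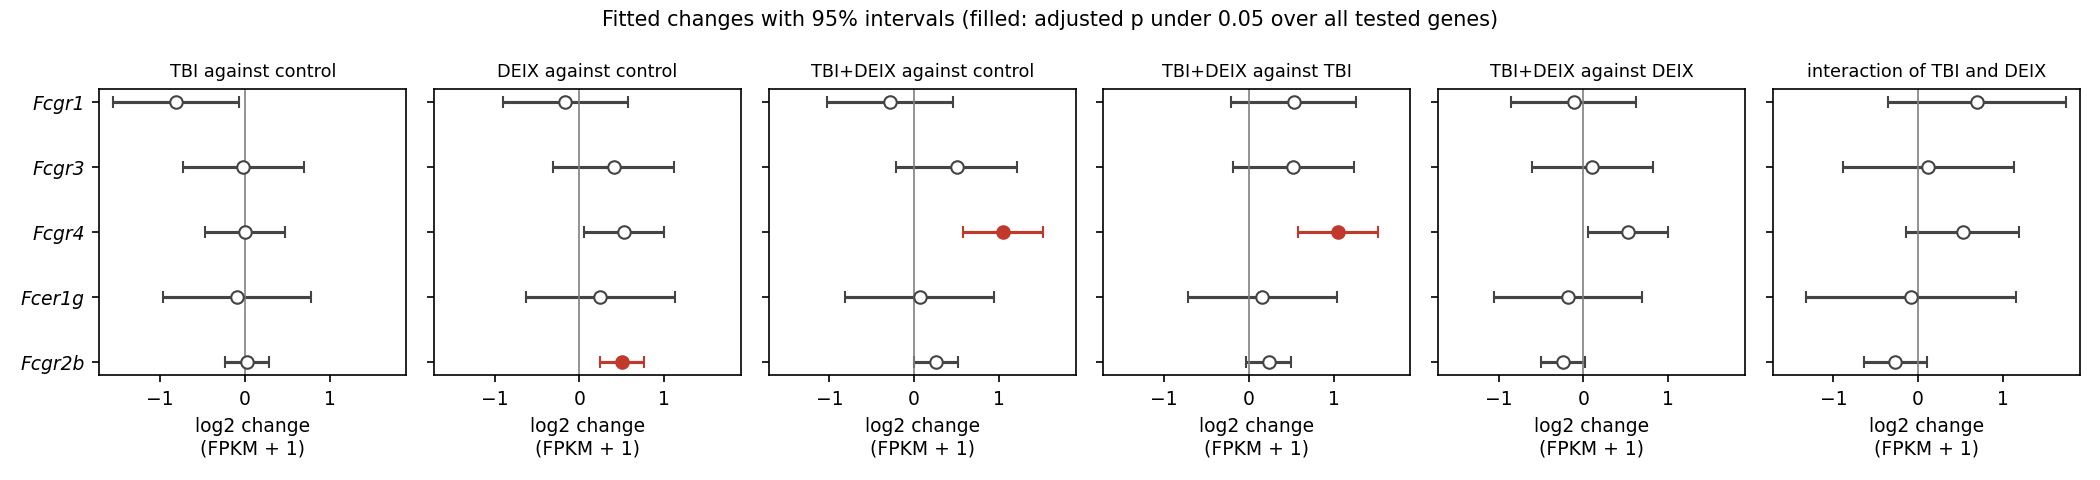
Log2 change of FPKM + 1 (x axis) with its 95% interval for each member (rows) in 6 comparisons (panels), filled where the limma adjusted p over all tested genes is under 0.05. The filled points are Fcgr2b in DEIX against control (0.50) and Fcgr4 in TBI+DEIX against control and against TBI (1.05 each), and the Fcer1g intervals are the widest of the 5 in each panel.

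Ratios taken inside a library do not move with its scaling, and they show how the activating genes stood beside the inhibitory one. Control, TBI and DEIX libraries held Fcgr4 at 1.49, 1.46 and 1.51 times Fcgr2b on average (log2 ratio 0.58 ± 0.06, 0.55 ± 0.08 and 0.60 ± 0.02; SD, n = 3). TBI+DEIX libraries held it at 2.59 times (log2 ratio 1.37 ± 0.50, with 0.81, 1.76 and 1.54 in replicates 1 to 3). All 3 TBI+DEIX ratios were above the 9 others, which ran from 0.50 to 0.64. The 3 DEIX ratios (0.57 to 0.62) lay inside the control range (0.51 to 0.63), although both genes were higher in every DEIX library than in control.

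The Fcgr1 to Fcgr2b log2 ratio was -2.19 ± 0.03 in control and -3.18 ± 0.12 in TBI, with no overlap (control -2.21 to -2.15, TBI -3.32 to -3.10). It was -2.80 ± 0.77 in TBI+DEIX and -2.90 ± 0.47 in DEIX, where replicate 2 was low at -3.44. The Fcgr3 to Fcgr2b log2 ratio was 2.57 ± 0.09 in control, 2.53 ± 0.19 in TBI and 2.46 ± 0.14 in DEIX, and it split in TBI+DEIX into 1.89 in replicate 1 and 3.37 and 3.18 in the others. Fcer1g stood at 3.32 times the summed activating receptors in control, 3.18 in TBI, 2.94 in DEIX and 2.26 in TBI+DEIX (log2 ratio 1.17 ± 0.29 against 1.73 ± 0.23 in control). In 2 of the 3 TBI+DEIX libraries this last ratio was under all other libraries, at 0.85 and 1.26, and the remaining one, at 1.42, was above the lowest DEIX library (1.37). Ratios between genes of different length may carry the length difference described for TBI+DEIX replicate 1, which was not tested.

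**Figure D3:**
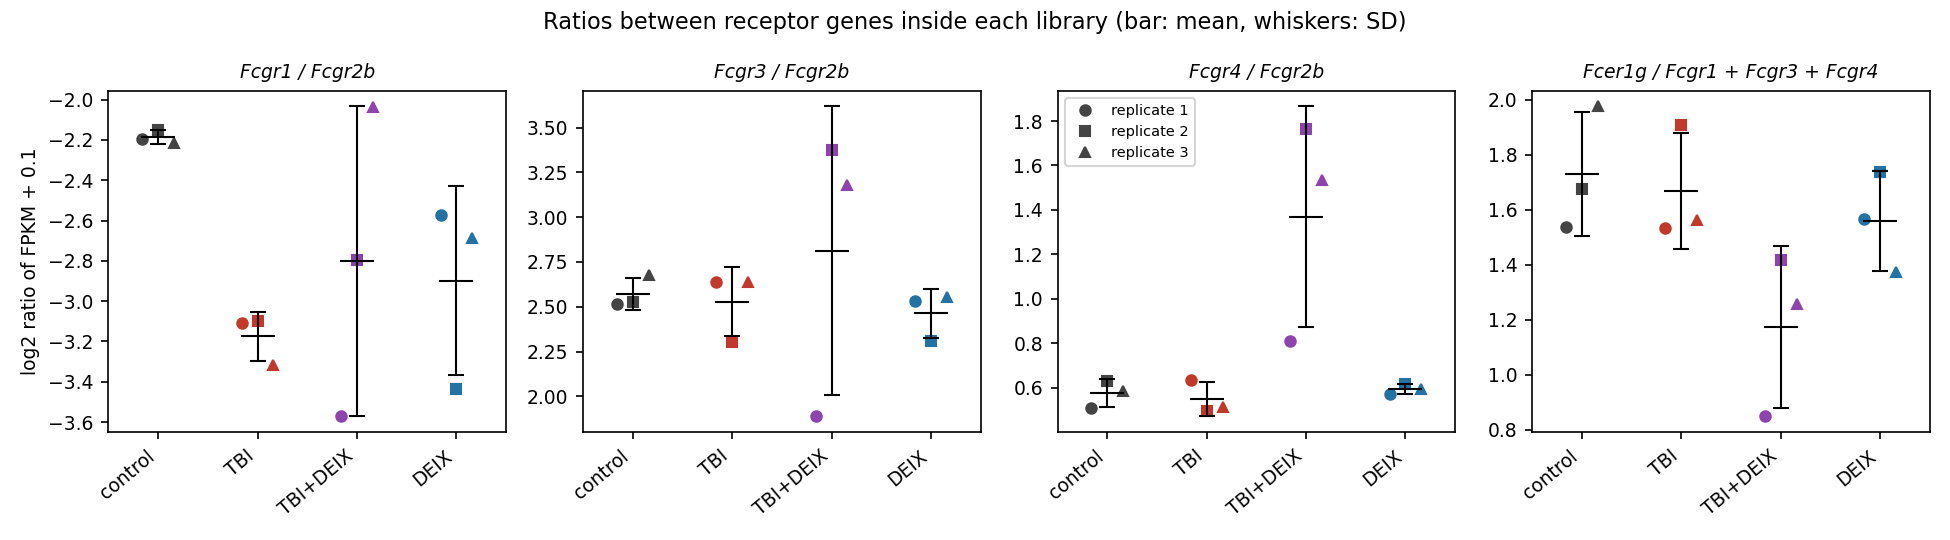
Log2 ratio of FPKM + 0.1 (y axis, not starting at 0) between members inside each library, by group (x axis), with the mean as a bar and the SD as whiskers (n = 3). The 3 TBI+DEIX libraries lie above the 9 others for Fcgr4 over Fcgr2b, and the 3 TBI libraries lie under the 3 control libraries for Fcgr1 over Fcgr2b.

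The listed genes of activating Fc receptor signalling were mostly higher with DEIX. Of 21 listed genes of activating signalling, 20 were tested. In TBI+DEIX against control, where 30.0% of all tested genes were called, 15 were higher and 9 rose by the test, while Lat2 fell (-0.60). The list's median log2 change there was 0.32, beside 0.02 over all tested genes. In TBI+DEIX against TBI 18 were higher, 5 rose and 0 fell, beside 8.10% of all tested genes called, with a median of 0.36 beside 0.00. In DEIX against control 16 were higher, 4 rose and 0 fell, beside 7.24% called, with a median of 0.31 beside 0.02. In TBI against control 11 were higher, 0 rose, and Lat2 (-0.61) and Cd247 (-0.88) fell, beside 3.99% called, with a median of 0.04 beside 0.05. No gene of the list was called in TBI+DEIX against DEIX or in the interaction.

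The Src-family kinases Fgr and Lyn were among those that rose. Fgr measured 78.6, 82.8 and 84.0 FPKM in control and 143, 161 and 177 in TBI+DEIX, a log2 change of 0.96 (SE 0.13, limma adjusted p = 0.000512), and it also rose in DEIX (0.71, adjusted p = 0.0105) and in TBI+DEIX against TBI (0.71, adjusted p = 0.0170). For Lyn, which can act on both the activating and the inhibitory tails, the changes were 0.65 in TBI+DEIX (SE 0.12, limma adjusted p = 0.00308), 0.56 in DEIX (adjusted p = 0.0242) and 0.73 against TBI (adjusted p = 0.0160). Unlike Fcgr3 and Fcer1g, both kinases were above all control libraries in TBI+DEIX replicate 1 too, with Lyn at 148 FPKM and Fgr at 143.

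Syk, the kinase recruited to the phosphorylated chain, rose in TBI+DEIX against TBI (0.45, SE 0.11, limma adjusted p = 0.0360), a call kept in 4 of 12 fits that left out 1 library, and did not pass against control (0.15, adjusted p = 0.352). Card9, an adaptor downstream of Syk, rose in TBI+DEIX against control (0.79, limma adjusted p = 0.00122), against TBI (0.54, adjusted p = 0.0304) and in DEIX (0.62, adjusted p = 0.0185). Vav3, a guanine nucleotide exchange factor, also rose in these comparisons, by 0.44, 0.38 and 0.42. The remaining genes called in TBI+DEIX against control were Vav1 (0.48), Plcg2 (0.43), Gab2 (0.78), Rac2 (0.61) and Was (0.43). Gab2, an adaptor, measured 23.0 FPKM in TBI+DEIX replicate 1, 10.4 and 9.65 in replicates 2 and 3 and 6.79 to 7.62 in control, and its change without replicate 1 was 0.41 (limma adjusted p = 0.00405). Tyrobp, an ITAM chain related to Fcer1g, followed the Fcer1g pattern, at 602 FPKM in TBI+DEIX replicate 1 and 2672 and 2541 in replicates 2 and 3, and was not called.

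Of inhibitory signalling genes, 13 were listed and all were tested. In TBI+DEIX against control 10 were higher, 4 rose (Pag1, 1.02; Dok2, 0.72; Cbl, 0.68; Dok3, 0.62) and Inppl1 fell (-0.87, and -0.55 without TBI+DEIX replicate 1), 5 of 13 called beside 30.0% of all tested genes, and the median was 0.18 beside 0.02. In DEIX against control 10 were higher and Pag1 (0.70) and Cbl (0.55) rose, beside 7.24% called, with a median of 0.19 beside 0.02. In TBI+DEIX against TBI 11 were higher and Pag1 (0.55) and Dok3 (0.58) rose, beside 8.10% called, with a median of 0.14 beside 0.00 (0.23 without TBI+DEIX replicate 1). In TBI against control 8 were higher and 0 passed. Inpp5d, the phosphatase that Fcgr2b recruits, measured 45.5 to 48.5 FPKM in control, 44.8 to 46.8 in TBI, 51.7 to 54.0 in TBI+DEIX and 48.8 to 55.0 in DEIX, and was not called (0.18 in TBI+DEIX against control, limma adjusted p = 0.115). Ptpn6, another phosphatase of ITIM tails, was not called either (0.25, adjusted p = 0.259).

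The counts of called signalling genes depended on the scaling and on TBI+DEIX replicate 1. With every library set to the same sum, activating genes called were 4 in TBI+DEIX against control and 0 in DEIX against control and in TBI+DEIX against TBI, and inhibitory genes called were 2, 0 and 0, in fits that called 16.4%, 2.77% and 1.41% of all tested genes. Without TBI+DEIX replicate 1 activating genes called were 14, 10 and 14 and inhibitory ones 7, 3 and 5, while the share of all tested genes called rose to 38.5%, 21.8% and 25.8%.

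**Figure D4:**
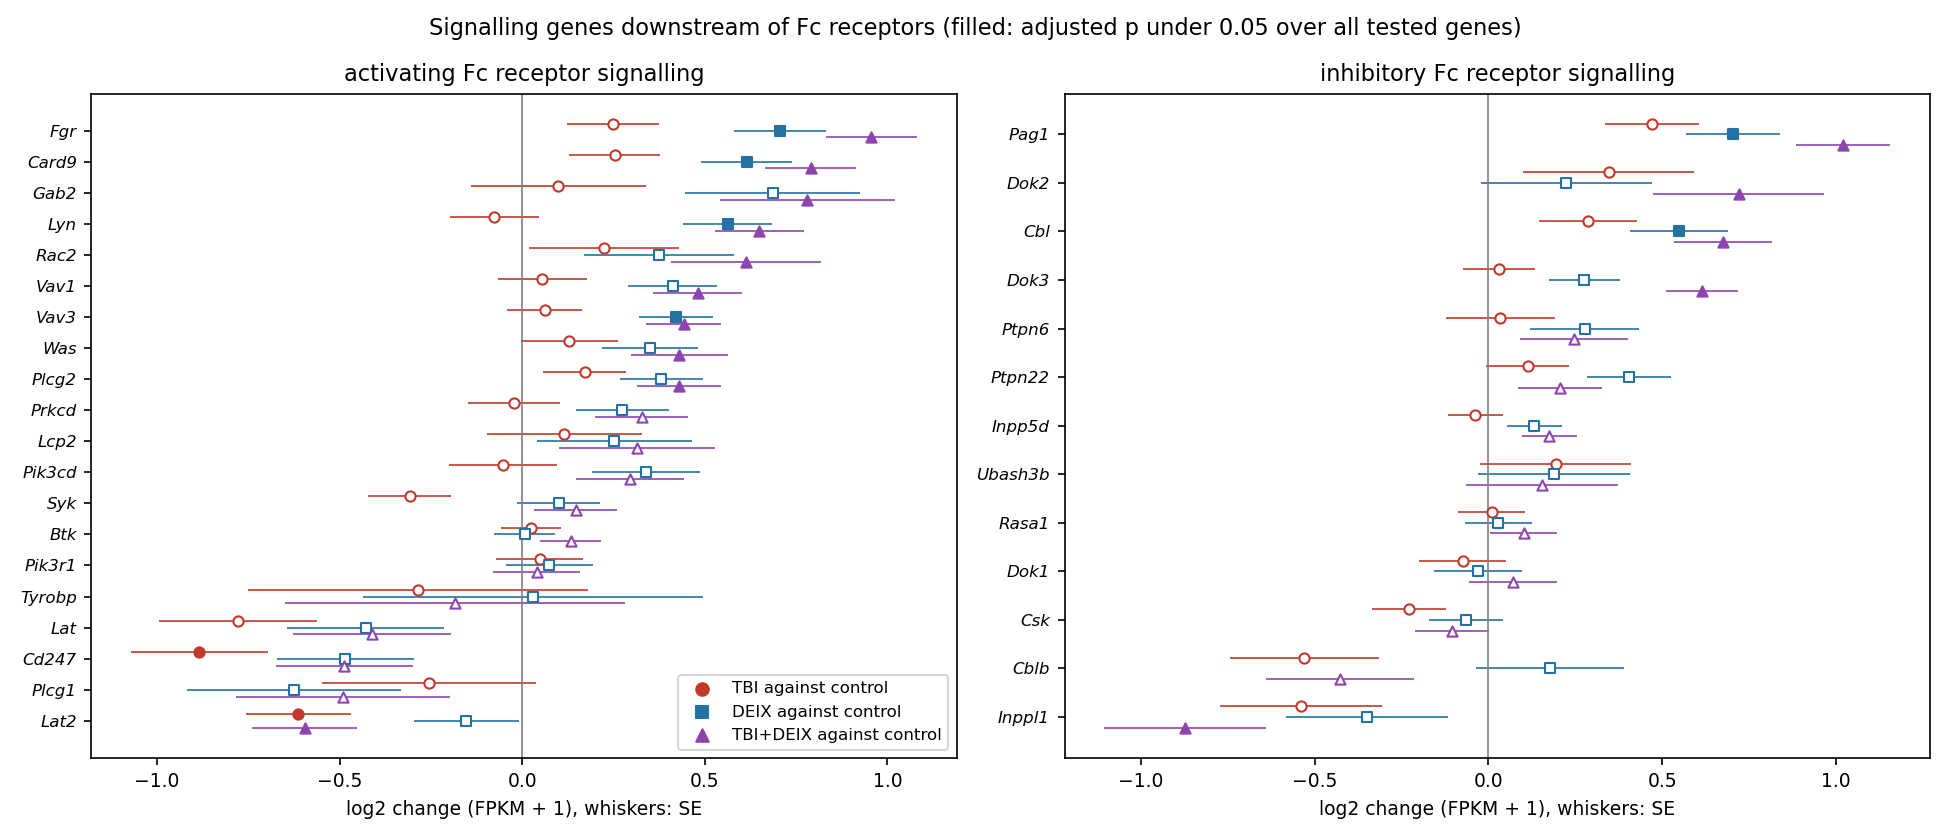
Log2 change of FPKM + 1 against control (x axis, whiskers SE) of the tested genes of activating (left) and inhibitory (right) signalling in TBI, DEIX and TBI+DEIX, filled where the limma adjusted p is under 0.05. Fgr, Card9 and Lyn lie to the right in DEIX and TBI+DEIX and nearer 0 in TBI, and Lat2 lies to the left in TBI and TBI+DEIX.

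Other receptors that use the Fcer1g chain split. Of 9 listed, 6 were tested. Clec4e, which encodes the pattern receptor Mincle, measured 35.0, 31.3 and 30.3 FPKM in control, 52.4, 33.1 and 29.4 in TBI, 50.2, 111 and 108 in TBI+DEIX and 93.9, 69.7 and 84.9 in DEIX. It rose in DEIX against control (1.33, SE 0.29, limma adjusted p = 0.0242), in TBI+DEIX against control (1.37, adjusted p = 0.00541) and against TBI (1.17, adjusted p = 0.0355). Clec4n, which encodes Dectin-2, rose against TBI (0.98) and against DEIX (1.10), while Klrb1c and Ncr1, genes of natural killer cells, fell in TBI+DEIX against control (-0.81 and -1.21). Ncr1 was at 0.20 FPKM in TBI+DEIX replicate 1, and its change was -0.74 without that library. Klrb1c also fell in TBI against control (-0.97, limma adjusted p = 0.0231). Clec4d, at 8.95 FPKM in TBI+DEIX replicate 1 and 120.4 and 92.7 in replicates 2 and 3, was not called.

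Fc receptor genes outside the gamma family were mostly lower than in control. Of 14 listed, 8 were tested; 0 of them were higher in TBI or TBI+DEIX against control and 1 in DEIX, with medians of -0.92, -1.08 and -0.56. Leaving out TBI+DEIX replicate 1, the TBI+DEIX count was 1 and the median -0.64. Those that fell by the test numbered 4 after TBI (3.99% of all tested genes called), 5 after TBI+DEIX (30.0%) and 3 after DEIX alone (7.24%). Without TBI+DEIX replicate 1 they numbered 5 in each of these comparisons, beside 12.2%, 38.5% and 21.8%. Fcmr, the IgM receptor of B cells, measured 15.9 to 22.3 FPKM in control, 0.32 to 0.59 in TBI, 0.36 and 0.39 in TBI+DEIX replicates 3 and 2 (listed at 0 in replicate 1) and 4.37 to 9.23 in DEIX, and it fell in all 3 comparisons against control (-3.84, -4.02 and -1.39). Fcrla, a B cell Fc receptor relative, and Fcer2a, the low-affinity IgE receptor, also fell in all 3. Fcgrt, the neonatal receptor that protects IgG from breakdown, fell in TBI+DEIX against control (-1.10, SE 0.28, limma adjusted p = 0.0144), from 11.8 to 14.1 FPKM in control to 3.32 to 8.35. Fcrl1, a receptor-like gene of B cells, fell there by 1.05 (limma adjusted p = 0.0479) and by 0.48 without TBI+DEIX replicate 1, where it was at 0.50 FPKM. The IgG heavy chain genes that encode the ligands were not analysed here.

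Genes of the interferon gamma pathway moved in both directions. Of 15 listed, 13 were tested. In TBI against control 4 were higher, and Gbp3 (-0.85), Socs1 (-0.97) and Cd274 (-0.91) fell. That comparison called 3.99% of all tested genes, and the list median was -0.67 beside 0.05. In TBI+DEIX against control 6 were higher, Jak1 rose (0.43), and Irf8 (-1.92) and Gbp3 (-0.93) fell. These were 3 of 13 called, beside 30.0% of all tested genes, with a median of -0.01 beside 0.02. When TBI+DEIX replicate 1 was left out, 9 were higher than control in TBI+DEIX, with 4 called higher and 2 lower beside 38.5%. In that fit 8 fell in TBI and 4 in DEIX against control, beside 12.2% and 21.8%. In DEIX, the receptor gene Ifngr1 (0.62) and Jak1 (0.37) rose while Socs1, a feedback inhibitor, fell (-0.83). There 7.24% of all tested genes were called, and the list median was -0.30 beside 0.02. Socs1 and Cd274 rose in TBI+DEIX against TBI (0.69 and 1.03), while Irf8, a transcription factor of the pathway, fell against TBI (-1.03, limma adjusted p = 0.0240) and against DEIX (-1.62, adjusted p = 0.00639). Socs1 was the single gene of all pathway lists called in the interaction in the main fit (1.52, SE 0.20, limma adjusted p = 0.0142), beside 0.200% of all tested genes. Leaving out TBI+DEIX replicate 1, 6 interferon gamma genes, 4 other Fc receptor genes, 1 activating signalling gene and 1 gene that pairs with the chain were called there, beside 3.01% of all tested genes. Of 17 type I interferon response genes 0 were higher in each of the 3 comparisons against control, with medians of -1.58 (TBI), -1.39 (DEIX) and -1.49 (TBI+DEIX), and 3, 5 and 7 of them fell by the test, beside 3.99%, 7.24% and 30.0% of all tested genes called. These values turned on TBI+DEIX replicate 1, where the summed FPKM of these genes was 84.2 beside 332 and 514 in replicates 2 and 3, 534 to 650.4 in control, 167 to 204 in TBI and 175 to 263 in DEIX. When it was left out, 3 of the 17 (Oas2, Oas3 and Ddx58) were higher than control, the median was -0.63 and 7 fell, beside 38.5% of all genes called. In the same fit 16 of the 17 fell in TBI and 16 in DEIX against control, beside 12.2% and 21.8% called, with the medians of those comparisons as before. Their interaction had a median of 1.66 with 0 called, and 2.61 with 15 called without that library.

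Marker genes of the cells that carry these receptors, and of other marrow cells, also differed between libraries. Summed FPKM of 11 maturing neutrophil markers was 22310 to 30866 in control, 25793 to 32058 in TBI, 26580.0 to 36724 in DEIX, and 20774, 53084 and 50852 in TBI+DEIX replicates 1 to 3, the same low and high libraries as for Fcgr3 and Fcer1g. Of the 11, 9 were higher in TBI+DEIX than in control and 3 rose by the test (median 0.13, 30.0% of all tested genes called), which became 11 higher and 8 risen (median 1.15, 38.5% called) when replicate 1 was left out. For 9 classical monocyte markers the sums were 2050.5 to 2086 in control, 1398 to 2258 in TBI, 2485 to 2914 in DEIX and 849.8 to 2752 in TBI+DEIX, and 9 of 9 were higher in DEIX against control, 4 of them by the test, beside 7.24% of all tested genes called (7 of them, beside 21.8%, without TBI+DEIX replicate 1). In TBI+DEIX 2 of the 9 were higher than control and 7 lower, with 2 called higher and 3 lower (median -0.48, 30.0% of all tested genes called). Against DEIX 0 were higher and 4 fell by the test (median -1.37, 2.57% called). When replicate 1 was left out, 3 were higher than control (median -0.16), with 2 still called higher and 3 lower, beside 38.5% called. Against DEIX in that fit 1, Ly6c2, was higher and 6 fell (median -0.94, 8.43% called). For 7 nonclassical monocyte markers the sums were 201 to 212 in control, 188 to 212 in TBI, 226 to 330.1 in DEIX and 227 to 243 in TBI+DEIX. Most of these sums came from Itgal and Spn (means 93.2 and 90.3 FPKM over the 12 libraries). In TBI+DEIX 3 of the 7 were higher than control and 4 lower, with 1 called each way (median -0.01, 30.0% of all tested genes called). When replicate 1 was left out, 1 was called higher and 2 lower (median -0.23, 38.5% called). In DEIX 7 were higher and 0 called (median 0.27). The sums of 14 macrophage markers were 167 to 209.7 in control, 84.6 to 132 in TBI, 76.2 to 96.9 in DEIX and 169.7 to 228 in TBI+DEIX, so TBI and DEIX lay under control and TBI+DEIX overlapped it. Of 13 tested, 8 fell in DEIX against control (median -1.18, 7.24% of all tested genes called) and 3 in TBI (median -0.51, 3.99%). All 13 were higher in TBI+DEIX than in TBI, where 2 rose (median 0.67, 8.10% called), and 12 than in DEIX, where 7 rose (median 1.29, 2.57% called). In the interaction 5 passed (median 1.87), beside 0.200% of all tested genes. When TBI+DEIX replicate 1 was left out, 6 rose against TBI (25.8% called), 9 against DEIX (8.43%) and 8 passed in the interaction (3.01%). In that fit 10 fell in DEIX against control (21.8% called) and 5 in TBI (12.2%).

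B lineage, T and natural killer cell and erythroid markers were lower in TBI+DEIX than in control, a comparison that called 30.0% of all tested genes and 38.5% without TBI+DEIX replicate 1. The 10 B lineage markers summed to 384 to 467 in control, 29.2 to 339 in TBI, 62.0 to 98.3 in DEIX and 7.16 to 175 in TBI+DEIX, where all 10 were lower than control and 8 fell by the test (median -2.95). Without TBI+DEIX replicate 1 all 10 were still lower and 7 fell (median -2.35). The 11 T and natural killer cell markers summed to 194 to 229.6 in control, 109 to 149.5 in TBI, 153 to 207 in DEIX and 65.2 to 161 in TBI+DEIX, where all 11 were lower than control and 5 fell by the test (median -0.75). When TBI+DEIX replicate 1 was left out, 9 were lower and 5 fell (median -0.33). For 8 erythroid markers the sums were 2490.3 to 4079 in control, 1341 to 5769.8 in TBI, 1020.4 to 5426 in DEIX and 173 to 1203 in TBI+DEIX, where all 8 were lower than control and 5 fell by the test (median -2.19), or 2 of the 8 lower ones when replicate 1 was left out (median -1.87). Sums of the 5 plasma cell markers were 196 to 358 in control, 242 to 339 in TBI, 175 to 897 in DEIX and 135, 423 and 1195 in TBI+DEIX replicates 1 to 3, and the markers went in both directions. Of them 3 were higher in TBI+DEIX than in control and 1, Irf4, fell (median 0.41), and without replicate 1, 4 were higher and 1 rose (median 0.87). Tnfrsf17 of this list was at 0 in TBI+DEIX replicate 1. No marker of the other 7 lists was at 0 in any library, and the part of cell composition in the receptor changes was not tested.

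Profiles were compared by Pearson r of log2(FPKM + 1) over the 12 libraries, which share groups, depth and the length difference described above. The most similar genes were sought among 8189 tested genes with a mean of at least 5 FPKM, without predicted-gene, Riken and clone names. For Fcgr4 these were Cmtm6 (r = 0.971), Fuca1 (0.969) and Tmem189 (0.961), and for Fcgr3 Stk40 (0.977), Rhof (0.974) and Tspan14 (0.971). For Fcer1g they were S100a11 (0.987), Cd52 (0.978) and Atp6v0b (0.978). For Fcgr2b they were Ssr3 (0.950), Rrbp1 (0.947) and Ms4a6d (0.946), the last also a listed classical monocyte marker. For Fcgr1 they were Sp110 (0.924), Ly6a (0.924) and Trim30a (0.916), all known as interferon-responsive. Without TBI+DEIX replicate 1 these 15 correlations ran from 0.899 to 0.981.

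**Figure D5:**
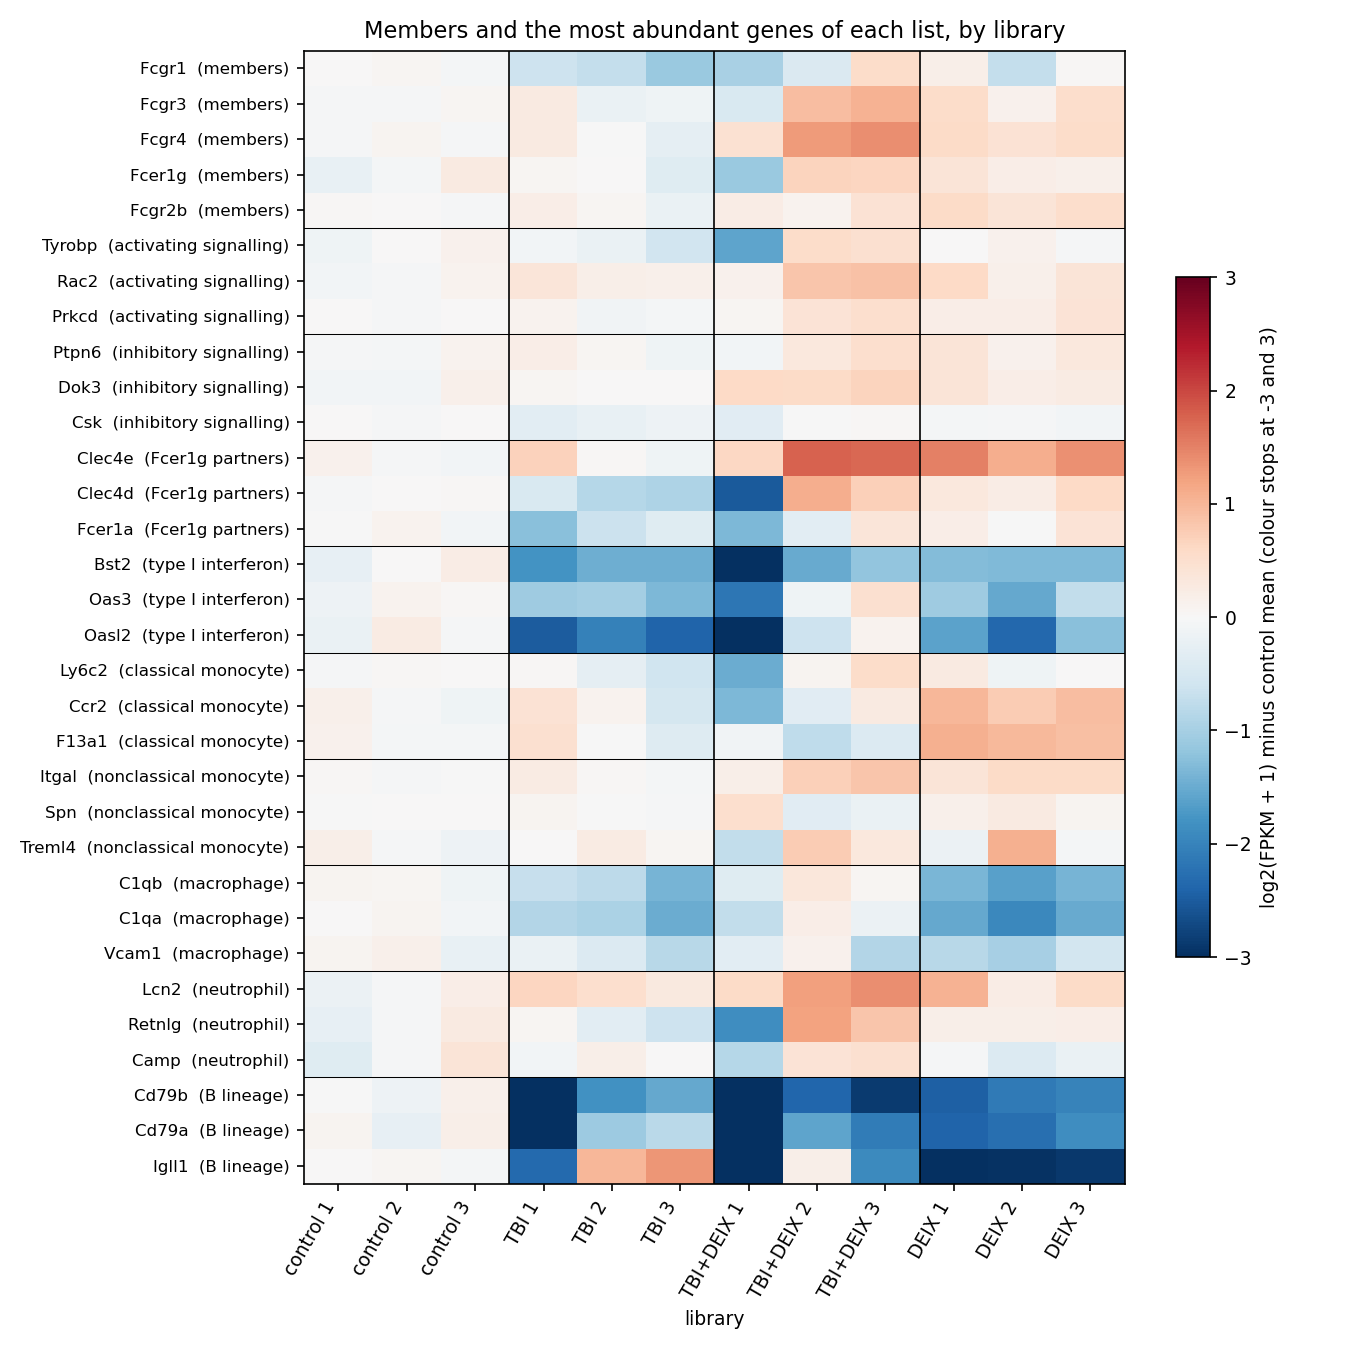
Log2(FPKM + 1) minus the control mean (colour, from -3 to 3) for the members and the 3 most abundant tested genes of the listed groups (rows) in each library (columns). Fcgr3, Fcer1g, Tyrobp, Clec4d and Retnlg are low in TBI+DEIX replicate 1 and high in replicates 2 and 3, whereas Fcgr4 is above control in all 3.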

How the data were processed

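Strand-specific mRNA libraries of whole bone marrow (MGIEasy RNA Directional kit, per the labels' protocols) were available from 12 samples, 3 in each of 4 groups taken from the sample titles. The authors deposited FPKM per gene and library. The submitters' processing notes name STAR 2.6, Cufflinks 2.2.1 and mm10, without their settings or annotation. Since FPKM are not counts, count tests were not applied, and the depth behind a value is known only as the relative worth of 1 read, estimated from steps of low genes. Identifiers were matched to GENCODE vM21 (21853 of 21853). Genes with at least 1 FPKM in at least 3 libraries were fitted in 1 model of 4 group means with limma 3.58.1 (R 4.3.3; lmFit, eBayes with a trend) on log2(FPKM + 1), a script tested on simulated data first, and p-values were Benjamini-Hochberg adjusted over all 10994 genes. The interaction is the DEIX effect after TBI minus that without. Ratios used a pseudocount of 0.1. Promoter windows came from RefSeq.

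The members and lists were chosen with earlier results of these data known. Beside the members, the text names pathway genes called in a comparison described, the 3 most abundant tested genes of a list, markers listed at 0, and the 3 genes most like each member. Inpp5d was named for its known role, after its values were seen. Oas2 and Ddx58 were named for lying above control without TBI+DEIX replicate 1. Alternatives covered pseudocounts, filters, the groups in the model, scaling, quantile normalization, array weights, the trend, a replicate block and leaving out each library. Over 18 same-numbered pairs, deviations from group means correlated between -0.447 and 0.242, with 3 above 0.1. No pairing by number was seen, but 3 libraries a group are too few to exclude it. An item of the signalling list is not reported here.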

Additional observations from a re-analysis of the deposited data

How the results depend on the processing

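Each comparison of 2 groups was refitted under 23 alternatives and the interaction under 22. Fcgr4 in TBI+DEIX against control was called in 23 of 23 (log2 change 0.84 to 1.34), Fcgr4 against TBI in 19 of 23 (0.87 to 1.34) and Fcgr2b in DEIX against control in 13 of 23 (0.35 to 0.55). Over fits that left out 1 library, members called ranged from 0 to 2 in DEIX against control, 1 to 3 in TBI+DEIX against control, 0 to 3 against TBI, 0 to 2 against DEIX and 0 to 1 in the interaction. The highest counts came without TBI+DEIX replicate 1, where 21.8%, 38.5%, 25.8%, 8.43% and 3.01% of all tested genes were called. Over the same fits, calls of pathway genes kept ranged from 3 to 10 of 10 in TBI against control, 2 to 13 of 13 in DEIX against control, 17 to 26 of 26 in TBI+DEIX against control, 0 to 12 of 12 against TBI and 3 to 4 of 4 against DEIX.

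With only the compared groups in the model, members called were 1 in TBI against control, 2 in DEIX against control and 0 in TBI+DEIX against TBI, in fits that called 12.9%, 18.7% and 0 of all tested genes. In DEIX against control 0 were called with equal sums, rescaled without S100a8, S100a9 and Ngp, under quantile normalization and with the replicate block; the block changed no other member's call. Under array weights, whose estimation stopped before its tolerance, members called were 2 in TBI against control, 3 in DEIX against control, 4 in TBI+DEIX against control and 4 against TBI, 1 against DEIX and 2 in the interaction, in fits that called 63.8%, 47.7%, 62.5%, 50.3%, 11.1% and 10.4% of all tested genes. The cause was not tested.

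Counts over genes moved too. Over the alternatives, called genes ranged from 134 to 7017 (439 as reported) in TBI against control, 146 to 5249 (796) in DEIX against control, 1803 to 6866 (3299) in TBI+DEIX against control, 0 to 5532 (891) against TBI, 0 to 1222 (283) against DEIX and 4 to 1148 (22) in the interaction. With equal sums, 53 of 305 calls in DEIX against control were higher, beside 497 of 796, 549 of 1803 in TBI+DEIX against control, beside 1855 of 3299, and 54 of 155 against TBI, beside 516 of 891. On this scale the median log2 change of all genes was -0.12 in the first of these and -0.11 in the last. Called genes of activating signalling ranged from 0 to 15 (2), 0 to 16 (4), 4 to 18 (10) and 0 to 16 (5) in the first 4 comparisons in this order, and those of inhibitory signalling from 0 to 9 (0), 0 to 7 (2), 2 to 9 (5) and 0 to 7 (2).

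Directions turned only for member changes that were not called. In TBI against control, Fcgr4 was 0.0055 with equal sums and 0.018 rescaled, Fcgr3 0.0028 rescaled, Fcgr2b -0.041 and Fcer1g 0.064 under quantile normalization, and Fcer1g 0.041 under array weights. In TBI+DEIX against control Fcer1g was -0.061 with equal sums and -0.023 rescaled. Under array weights Fcer1g was 0.38 against DEIX and 0.34 in the interaction. Leaving out 1 library gave, in TBI against control, -0.064 to 0.14 for Fcgr2b, -0.17 to 0.073 for Fcgr3, -0.14 to 0.13 for Fcgr4 and -0.21 to 0.045 for Fcer1g, and, in DEIX against control, -0.34 to 0.11 for Fcgr1. In TBI+DEIX against control it gave -0.70 to 0.060 for Fcgr1 and -0.23 to 0.66 for Fcer1g, and against TBI -0.14 to 0.75 for Fcer1g. Against DEIX it gave -0.53 to 0.23 for Fcgr1, -0.17 to 0.58 for Fcgr3 and -0.48 to 0.41 for Fcer1g, and in the interaction -0.16 to 0.60 for Fcgr3 and -0.39 to 0.51 for Fcer1g. With a pseudocount of 1, the Fcgr1 to Fcgr2b log2 ratio was -2.05 in control and -2.89 in TBI.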
